A study of Homo sapiens with 2 samples.

Results

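The genes described here are the 4 human Notch receptors (NOTCH1, NOTCH2, NOTCH3 and NOTCH4), the 5 ligands of the Delta and Jagged families (DLL1, DLL3, DLL4, JAG1 and JAG2) and NRARP, a feedback regulator of the pathway. They were taken by their NCBI gene numbers from both deposited expression tables, and all 10 were listed in both, among 18518 genes listed in at least 1 table. RNA was sequenced from H1 cells with the genotype MEIS1-/- and from wild-type H1 cells, with 1 library per genotype. H1 is a human embryonic stem cell line in wide use, and MEIS1 encodes a homeodomain transcription factor that works with HOX and PBX proteins. In a custom mTeSR1 medium, the protocol for both groups gave activin A (40 ng/ml) with BMP4 (50 ng/ml) for 2 days. VEGF (40 ng/ml) with bFGF (50 ng/ml) followed for 2 days. Both groups were collected on day 3 of this blood-directed differentiation. The 2 steps together run past day 3, and how much of the second step the collected cells had received is not given. The labels do not say which part of MEIS1 was removed, whether the MEIS1-/- cells were 1 clone, or whether the libraries came from more than 1 culture.

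Notch receptors are transmembrane proteins that are activated by ligands on a neighbouring cell. Binding and endocytosis of the ligand lead to cleavage of the receptor by ADAM proteases and then by gamma-secretase, and the freed intracellular domain enters the nucleus, where it joins RBPJ and MAML proteins to switch on target genes of the HES and HEY families. In the embryo the pathway is known for arterial fate, for the formation of blood stem cells from arterial endothelium and for the segmentation of paraxial mesoderm, in which DLL1 and DLL3 act in mouse. A library of a whole culture cannot tell fewer cells of a type from less RNA per cell, and this holds for every value below.

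The study asked how gene expression at day 3 differed without MEIS1. DLL3 was lower in the MEIS1-/- library, with 3 counts against 43 counts in the wild-type library, and JAG2 was higher, with 72 counts against 25. NOTCH3 was 1.44-fold lower, while NOTCH1 and JAG1 were 1.25-fold and 1.23-fold higher. NOTCH2 and NRARP were near a ratio of 1, and NOTCH4, DLL1 and DLL4 had too few counts to place their ratios above or below 1. With 1 library per genotype there was no test between genotypes, so each difference is between these 2 libraries. A gene is called higher or lower here where the exact 95% counting interval of its ratio excluded 1, and such intervals cover counting error only.

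Depth was similar in both libraries, with 5296397 assigned counts in the MEIS1-/- library and 5202847 in the wild-type library after rounding. The 10 genes together held 3308 and 3348 of these. MEIS1 itself (gene 4211) had 68 counts in the MEIS1-/- library and 89 in the wild-type library, or 4.01 and 5.34 FPKM, a log2 ratio of -0.40 (-0.88 to 0.07). This interval included no difference, and the tables give a single value per gene that does not show which exons were read. The MEIS1 level therefore did not check the genotype labels, and each direction given here is that of the library labelled MEIS1-/-.

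**Figure D1:**
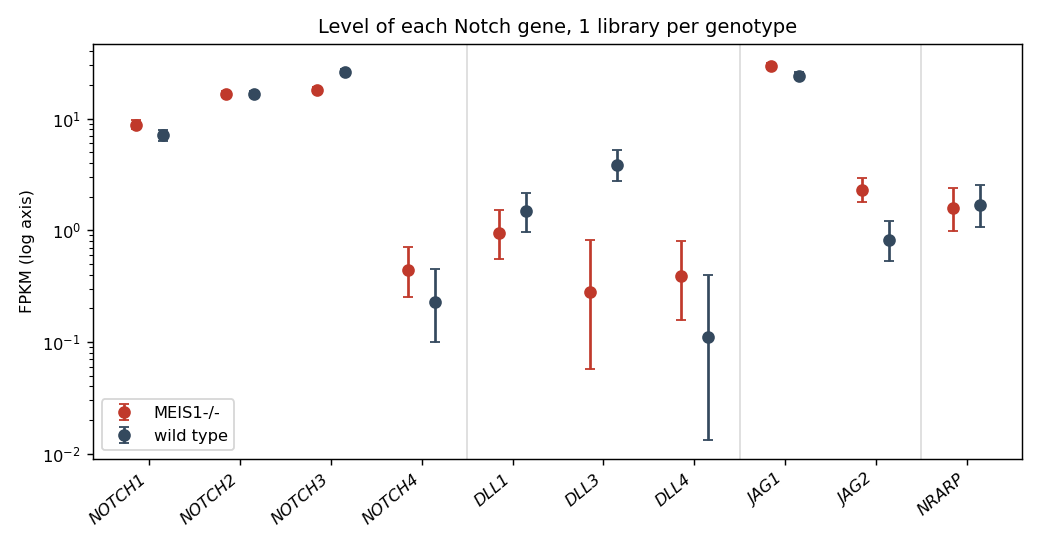
Level of each Notch gene in FPKM on a log axis, with the MEIS1-/- library (red) left of the wild-type library (dark) and bars for the exact 95% Poisson interval of the count. JAG1, NOTCH2 and NOTCH3 lie above 16 FPKM in both libraries, and DLL3 and JAG2 are the genes whose bars lie farthest apart.

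Upstream sequences are shown for DLL4 and JAG2, the members whose promoters held the core motif of MEIS and related TALE factors. NOTCH3, the receptor that was lower and whose promoter held no such match, is shown beside them. DLL4 had too few counts to place its ratio. The promoters of NOTCH1 and JAG1, which were higher, held no match either. Promoters of 8 of the 10 genes were matched in a RefSeq table of build GRCh38.p14, which is not the build of the expression tables, and DLL1 and DLL3 had none there. Each stretch runs 5′ to 3′ on the gene's own strand, from 250 bases before the annotated start to its first 30 bases, and capitals mark the motif TGACAG or its reverse complement CTGTCA.
DLL4, chr15:40929090-40929369, plus strand: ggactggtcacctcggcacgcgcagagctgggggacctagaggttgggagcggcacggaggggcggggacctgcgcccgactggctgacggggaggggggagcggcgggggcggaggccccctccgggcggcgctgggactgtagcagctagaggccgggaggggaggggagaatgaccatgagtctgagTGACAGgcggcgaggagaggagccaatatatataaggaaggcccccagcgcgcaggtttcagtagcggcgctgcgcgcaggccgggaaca
JAG2, chr14:105168747-105169026, minus strand: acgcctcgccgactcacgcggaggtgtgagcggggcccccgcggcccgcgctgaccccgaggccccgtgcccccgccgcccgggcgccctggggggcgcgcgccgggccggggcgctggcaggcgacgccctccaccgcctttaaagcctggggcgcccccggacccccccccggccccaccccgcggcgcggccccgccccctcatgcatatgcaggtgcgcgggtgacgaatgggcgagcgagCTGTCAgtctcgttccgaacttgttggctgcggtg
NOTCH3, chr19:15200966-15201245, minus strand: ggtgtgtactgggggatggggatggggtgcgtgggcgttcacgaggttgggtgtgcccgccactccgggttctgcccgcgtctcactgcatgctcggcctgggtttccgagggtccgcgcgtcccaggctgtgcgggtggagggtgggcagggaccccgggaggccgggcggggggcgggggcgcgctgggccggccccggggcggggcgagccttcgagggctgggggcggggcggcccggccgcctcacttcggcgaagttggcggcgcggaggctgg

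The motif lay from 60 to 55 bases before the start of DLL4, on the gene's strand. In JAG2 it lay on the opposite strand, from 5 bases before the start to its first base. Of 27305 promoters of 300 bases, 15.9% held TGACAG on at least 1 strand. The core motif of RBPJ, TGGGAA, was found in 24.3% of all promoters and in none of the 8 here. The ETS motif CAGGAA, in 28.4% of all, was found in NOTCH2 and NOTCH4. The other ETS motif searched, CCGGAA, was in none of the 8. Neither was AGATAA, a motif of GATA factors. The same held for TTTATGG, which posterior HOX proteins bind. The composite site of PBX with MEIS, TGATTGAC, was in none of them either. All 7 motifs were searched on both strands with the expression values already known, and a match or its lack is a description of these letters in these windows.

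Among the receptors, NOTCH3 was lower and NOTCH1 higher in the MEIS1-/- library. NOTCH1 (gene 4851), the receptor needed in mouse for blood stem cells to arise, had 438 counts in the MEIS1-/- library and 346 in the wild-type library, or 8.80 and 7.08 FPKM. Its ratio was 1.25 (1.09 to 1.45), so it was higher by a modest step that lay outside counting error. NOTCH3 (gene 4854), a receptor known from pericytes and vascular smooth muscle, had 778 counts in the MEIS1-/- library and 1111 in the wild-type library, or 18.00 and 26.17 FPKM. It was 1.44-fold lower (1.32 to 1.58), the receptor farthest from a ratio of 1 among those with more than 50 counts. NOTCH2 (gene 4853) had 1010 counts in the MEIS1-/- library and 1004 in the wild-type library, or 16.44 and 16.65 FPKM, a log2 ratio of -0.01 (-0.13 to 0.12).

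NOTCH2 was the member whose deposited counts were not whole, which means that some of its reads were divided with another gene. The partial copy NOTCH2NLA, which carries the start of NOTCH2, had 50 counts in the MEIS1-/- library and 64 in the wild-type library. With its counts added, the log2 ratio was -0.03 (-0.15 to 0.10), so the ratio lay near 1 with and without these reads.

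NOTCH4 (gene 4855), a receptor found mainly in endothelium, was scarce. It had 16 counts in the MEIS1-/- library (95% Poisson interval 9.15 to 26.0) and 8 in the wild-type library (3.45 to 15.8), or 0.44 and 0.23 FPKM. Its ratio of 1.87 had an interval of 0.80 to 5.34, so a difference was not detectable at this depth. In an annotation of another build an exon of NOTCH4 overlaps GPSM3 on the same strand. The deposited NOTCH4 counts were whole, which bears only on overlaps present in the authors' own annotation.

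Of the Delta ligands, DLL3 was lower and neither of the other two could be placed. DLL3 (gene 10683), an atypical ligand that lowers Notch signalling within its own cell and that in mouse is needed for somite formation, had 3 counts in the MEIS1-/- library (0.619 to 8.77) and 43 in the wild-type library (31.1 to 57.9). The level was 0.28 FPKM in MEIS1-/- and 3.85 FPKM in wild type. The log2 ratio with a pseudocount of 1 was -3.47, or 11.1-fold lower, and the counting interval ran from 4.64-fold to 73.0-fold lower. Of the 14381 genes that reached 10 counts in either library, 0.139% had a lower ratio than DLL3. The 3 counts fix the size of the difference poorly, with both ends of the interval beyond 4-fold.

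DLL1 (gene 28514), a canonical activating ligand, had 17 counts in the MEIS1-/- library and 26 in the wild-type library, or 0.95 and 1.48 FPKM. Its ratio of 0.66 had an interval of 0.33 to 1.24, which covers lower and higher values alike. DLL4 (gene 54567), the ligand of arterial and sprouting endothelium, had 7 counts in the MEIS1-/- library (2.81 to 14.4) and 2 in the wild-type library (0.242 to 7.22), or 0.39 and 0.11 FPKM. The ratio of 2.64 had an interval of 0.66 to 34.2, and DLL4 was the member below the minimum of 10 counts in both libraries.

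Both Jagged ligands were higher in the MEIS1-/- library. JAG1 (gene 182), which in mouse is needed for blood stem cells to form in the aorta, had 945 counts in the MEIS1-/- library and 760 in the wild-type library, or 29.58 and 24.22 FPKM, 1.23-fold higher (1.12 to 1.36). JAG2 (gene 3714) had 72 counts in the MEIS1-/- library (56.3 to 90.7) and 25 in the wild-type library (16.2 to 36.9). The level was 2.31 FPKM in MEIS1-/- and 0.82 FPKM in wild type. It was 2.78-fold higher (1.79 to 4.69), the highest ratio among the members with at least 10 counts, and 98.4% of genes had a lower one. In the annotation of the other build, JAG2 exons overlap the processed transcript AL512356.1 on the same strand. The deposited JAG2 counts were whole, which cannot show whether reads of that transcript were counted as JAG2 if the authors' annotation lacked it.

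NRARP (gene 441478) encodes a small ankyrin-repeat protein that is induced by Notch and that binds and lowers the active nuclear complex. It had 22 counts in the MEIS1-/- library and 23 in the wild-type library, or 1.57 and 1.68 FPKM. The ratio was 0.95 with an interval of 0.50 to 1.78, so a difference of up to about that size in either direction would not have been detectable.

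**Figure D2:**
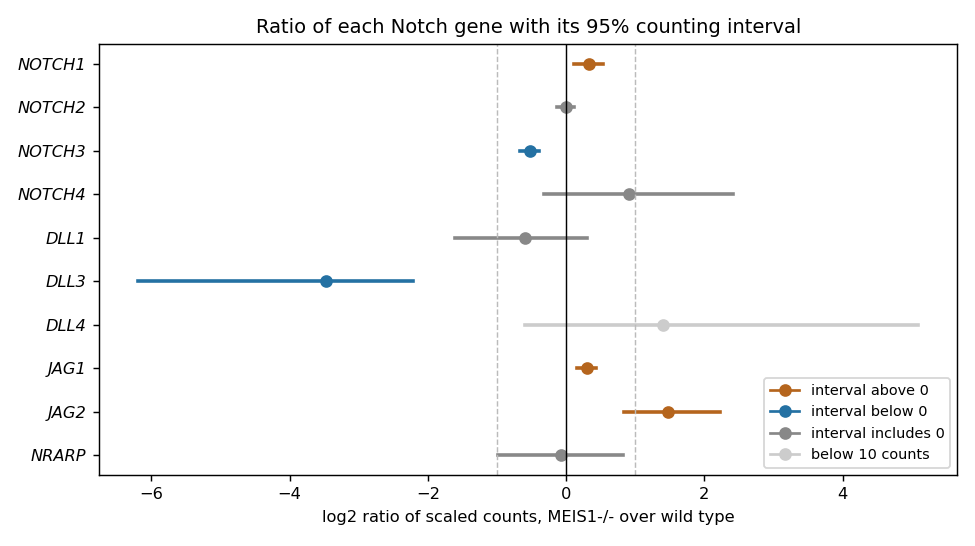
Log2 ratio of scaled counts, MEIS1-/- over wild type, for each Notch gene, with its exact 95% counting interval and dashed lines at 2-fold. NOTCH1, JAG1 and JAG2 lie above 0 with their whole interval, NOTCH3 and DLL3 below it, and the bar of DLL3 runs from -6.19 to -2.21.

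Of the 10 genes, 9 reached 10 counts in at least 1 library. In the higher direction the interval excluded 1 for 3 of them (NOTCH1, JAG1 and JAG2), beside 15.4% of all 14381 genes measured. In the lower direction it did so for 2 (NOTCH3 and DLL3), beside 14.7% of all genes. By the rule of at least 2-fold with an interval that excludes 1, JAG2 was the 1 member higher, beside 2.90% of all genes, and DLL3 the 1 member lower, beside 2.95%. NOTCH4 passed the minimum only through the MEIS1-/- library and DLL3 only through the wild-type library, so these counts describe the members and support nothing more. The median log2 ratio of the 9 was -0.0064, against 0.0032 over all genes measured, and it was 0.30 over the members with at least 50 counts.

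The order of levels differed between the libraries at its top and among the scarce genes. In the MEIS1-/- library the order by FPKM was JAG1, NOTCH3, NOTCH2, NOTCH1, JAG2, NRARP, DLL1, NOTCH4, DLL4 and DLL3. In the wild-type library it was NOTCH3, JAG1, NOTCH2, NOTCH1, DLL3, NRARP, DLL1, JAG2, NOTCH4 and DLL4. Neighbours whose counting intervals overlapped were NOTCH3 and NOTCH2 and every pair from JAG2 down in MEIS1-/-, and NOTCH3 with JAG1, NRARP with DLL1, DLL1 with JAG2 and NOTCH4 with DLL4 in wild type. JAG1 was 1.64 times the FPKM of NOTCH3 in the MEIS1-/- library and 0.925 times in the wild-type library. DLL3 held the highest level of the 3 Delta ligands in wild type and the lowest in MEIS1-/-, where the intervals of NOTCH4, DLL4 and DLL3 overlapped.

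NOTCH3 took a smaller share of the receptor message in the MEIS1-/- library. It made up 41.2% of the summed receptor FPKM in the MEIS1-/- library and 52.2% in the wild-type library. NOTCH2 made up 37.6% in MEIS1-/- and 33.2% in wild type, and NOTCH1 20.1% in MEIS1-/- and 14.1% in wild type. The level of NOTCH2 was near equal in both, so its larger share goes with the lower sum of receptor FPKM. With the FPKM of NOTCH2NLA added to NOTCH2, NOTCH2 made up 40.2% and NOTCH3 39.5% in MEIS1-/-, so the leading receptor there changed with these reads. In wild type NOTCH2 then made up 36.4% and NOTCH3 49.7%. NOTCH4 made up 1.01% in MEIS1-/- and 0.459% in wild type. As a share of receptor counts, which is not per length, NOTCH3 had 34.7% in MEIS1-/- (exact Clopper-Pearson interval 32.7 to 36.7) and 45.0% in wild type (43.0 to 47.0), and these intervals did not overlap.

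JAG1 made up most of the ligand message in both libraries, with 88.3% of summed ligand FPKM in MEIS1-/- and 79.5% in wild type. JAG2 made up 6.89% in MEIS1-/- and 2.69% in wild type. DLL3 made up 0.836% in MEIS1-/- and 12.6% in wild type, where it came next after JAG1. The 3 Delta ligands summed to 1.62 FPKM in MEIS1-/- and 5.44 FPKM in wild type, and the Jagged ligands to 31.89 FPKM in MEIS1-/- and 25.04 FPKM in wild type. All ligands summed to 33.51 FPKM in MEIS1-/- and 30.48 FPKM in wild type, and all receptors to 43.68 FPKM in MEIS1-/- and 50.13 FPKM in wild type. The quotient of summed ligand over summed receptor FPKM was 0.767 in MEIS1-/- and 0.608 in wild type.

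**Figure D3:**
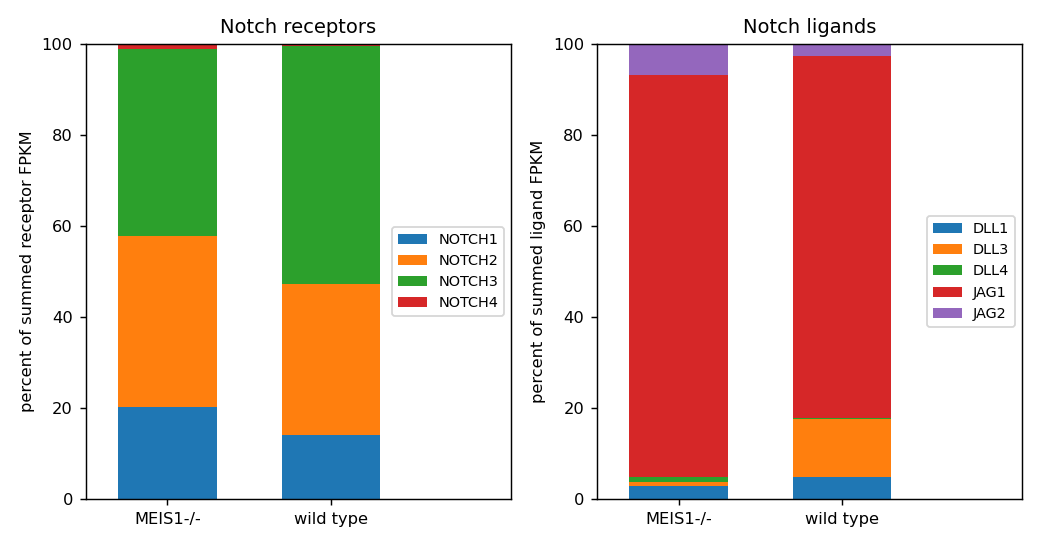
Share of each gene in the summed FPKM of the 4 receptors (left panel) and of the 5 ligands (right panel), with the MEIS1-/- library left of the wild-type library. NOTCH3 takes 41.2% of receptor FPKM in MEIS1-/- and 52.2% in wild type, and the DLL3 segment, 12.6% in wild type, is 0.836% in MEIS1-/-.

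The rest of the pathway was described with 51 genes in 6 groups by role, of which 50 were listed and 44 reached 10 counts. Their intervals lay above 1 for 12 genes, below 1 for 7 and included 1 for 25, beside 15.4% of all genes above and 14.7% below, and the median log2 ratio was 0.012, against 0.0032 over all genes. By the 2-fold rule 4 were higher (MFNG, NEURL1B, EGFL7 and HEYL), beside 2.90% of all genes, and 2 lower (DTX1 and HES6), beside 2.95%. The receptor-cleaving proteases and the nuclear complex held none of these 6. MFNG, HEYL and DTX1 passed the minimum of 10 counts only through the library in which they were high, so the counts are a description. The 99% intervals of POFUT1, ADAM10, MIB2, SNW1, NCSTN and DTX1 included 1, so these calls were lost at that level.

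Among the 5 glycosylation genes, which set how receptors respond to Delta and Jagged ligands, 2 were higher and 3 had an interval that included 1. MFNG, a Fringe glycosyltransferase, had 13 counts in the MEIS1-/- library and 0 in the wild-type library, at least 4.29-fold higher with wild type set to a floor of 3 counts and the 13 taken as exact. With counting error in each library, the interval began at 3.02-fold. LFNG, the Fringe enzyme of the segmentation clock, had 62 counts in MEIS1-/- and 59 in wild type, a log2 ratio of 0.06, and RFNG had 74 in MEIS1-/- and 85 in wild type. POFUT1, which adds the O-fucose that Fringe enzymes extend, had 19.34 FPKM in MEIS1-/- and 16.14 FPKM in wild type, 1.18-fold higher (1.04 to 1.35). The deposited counts of POFUT1, and of MAML3 and MFAP5 below, were not whole, so these genes shared some reads with others.

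Of the 9 cleavage genes 1 was higher, 2 were lower and 6 included 1. ADAM10, the main protease of the first cut, had 70.38 FPKM in MEIS1-/- and 64.83 FPKM in wild type, 1.09-fold higher (1.01 to 1.18). The gamma-secretase genes PSEN2 and NCSTN had ratios of 0.66 (0.47 to 0.91) and 0.89 (0.81 to 0.99). Of the 11 genes for endocytosis and turnover of ligand and receptor, 2 were higher, 1 was lower and 8 included 1. NEURL1B, a ubiquitin ligase that acts on ligands, had 79 counts in MEIS1-/- and 34 in wild type, 2.26-fold higher (1.52 to 3.55). DTX1, a Deltex ubiquitin ligase and a Notch target in lymphocytes, had 1 count in MEIS1-/- and 10 in wild type, a ratio of 0.18 with an interval of 0.0023 to 0.70. NUMB, which sorts receptors away from the cell surface, had 23.23 FPKM in MEIS1-/- and 26.08 FPKM in wild type, with an interval that included 1.

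Of the 10 genes of the nuclear complex 2 were higher, 2 were lower and 6 included 1. RBPJ, the DNA-binding partner, had 20.41 FPKM in MEIS1-/- and 21.97 FPKM in wild type, a ratio of 0.94 (0.84 to 1.05). SNW1, a cofactor in the complex, had 46.35 FPKM in MEIS1-/- and 39.82 FPKM in wild type, 1.17-fold higher (1.03 to 1.33). MAML3, a coactivator of the MAML family, had 215 counts in MEIS1-/- and 139 in wild type, 1.53-fold higher (1.23 to 1.91). SPEN, a corepressor of RBPJ, had a ratio of 0.88 (0.81 to 0.97). Only 3 of the 7 genes of non-canonical ligands reached 10 counts. EGFL7, a secreted endothelial protein that can bind Notch, had 30.51 FPKM in MEIS1-/- and 13.17 FPKM in wild type, 2.41-fold higher (1.90 to 3.11). The microfibril gene MFAP2 was lower, with 42.65 FPKM in MEIS1-/- and 61.20 FPKM in wild type, a ratio of 0.70 (0.59 to 0.83), and MFAP5 was 1.85-fold higher (1.39 to 2.50).

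Of the 9 HES and HEY genes, a family in which several but not all members are induced by Notch, 6 reached 10 counts. Of these 3 were higher, 1 was lower and 2 included 1. HEYL had 12 counts in MEIS1-/- and 1 in wild type, a ratio of 6.43 with an interval of 1.76 to 508. HES6, an inhibitor of HES1, had 20 counts in MEIS1-/- and 42 in wild type, a ratio of 0.48 (0.26 to 0.82). HES1 had 13.07 FPKM in MEIS1-/- and 15.03 FPKM in wild type, with an interval that included 1, and HEY1 and HEY2 were 1.44-fold (1.09 to 1.93) and 1.40-fold (1.14 to 1.74) higher.

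**Figure D4:**
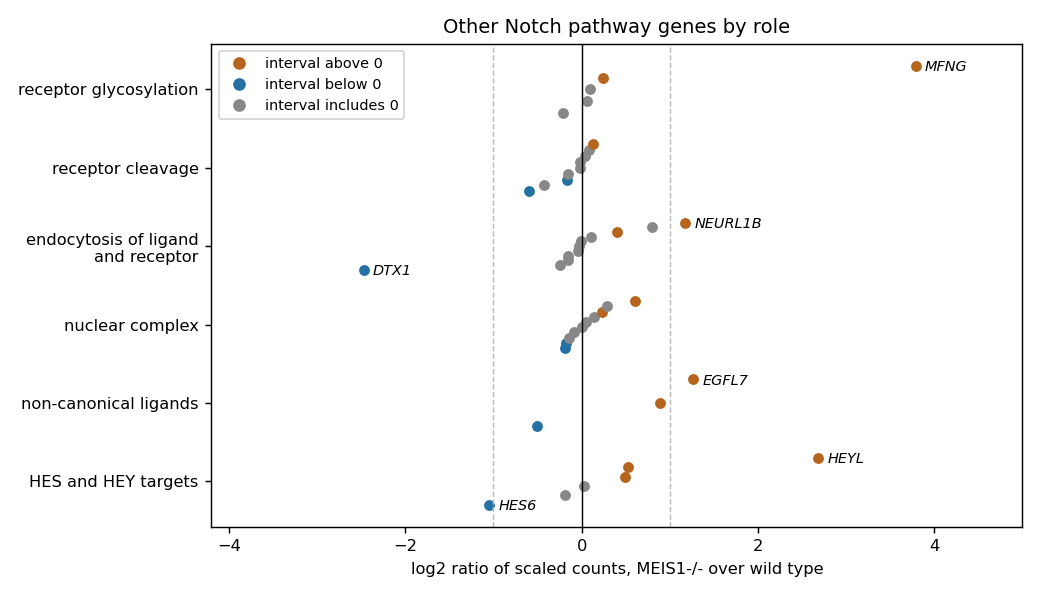
Log2 ratio of scaled counts, MEIS1-/- over wild type, for the 44 other pathway genes with at least 10 counts, by role, with dashed lines at 2-fold and names for the genes past it. MFNG, which had 0 counts in wild type, is drawn at its value with a pseudocount of 1, and the genes of receptor cleavage and of the nuclear complex all lie within 2-fold.

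Markers of the cell types that could carry these messages moved with several of the ratios, and their part in them was not tested. Their counts by interval stand beside 15.4% of all genes measured that were higher and 14.7% that were lower. Beside JAG2, NOTCH1 and EGFL7, 11 of the 12 measured endothelial markers, EGFL7 among them, were higher, and the 14 genes of that list summed to 619 FPKM in MEIS1-/- and 377 FPKM in wild type, with CLDN5 at 0 in both. PLVAP and PECAM1 had ratios of 6.99 (5.41 to 9.43) and 5.35 (3.90 to 7.81), although PECAM1 shared reads with other genes. The arterial list, in which HEY2 also stands, was split with 4 higher and 4 lower of 8, and it summed to 219 FPKM in MEIS1-/- and 227 FPKM in wild type, with none at 0. Its members GJA5 and SOX17 had log2 ratios of 0.59 (0.31 to 0.88) and -0.71 (-0.93 to -0.49), and SOX17 also stands in the endoderm list.

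Beside DLL3, all 6 measured primitive streak markers were lower by at least 2-fold, against 2.95% of all genes. The list of 8 summed to 44.9 FPKM in MEIS1-/- and 159 FPKM in wild type, with none at 0. EOMES had a ratio of 0.24 (0.21 to 0.28) and FGF17 of 0.26 (0.16 to 0.38). Of the 8 paraxial mesoderm markers 3 were measured, of which 2 were lower, and the list summed to 2.45 FPKM in MEIS1-/- and 5.63 FPKM in wild type. MESP2, a segmentation factor, had 0 counts in MEIS1-/- and 10 in wild type, at least 3.37-fold lower with MEIS1-/- set to a floor of 3 counts and the 10 taken as exact, and its counting interval reached 2.26-fold lower. TBX6 had 8 counts in MEIS1-/- and 28 in wild type. MSGN1 and MEOX1, defining genes of paraxial mesoderm, were at 0 in both libraries, HES7 and MESP2 were at 0 in MEIS1-/- and RIPPLY2 in wild type. Pluripotency markers were lower for 6 of 7 measured, against 14.7% of all genes, summing to 626 FPKM in MEIS1-/- and 824 FPKM in wild type, with none at 0. Beside NOTCH3, 3 of 8 pericyte and smooth muscle markers were higher and 1 was lower, against 15.4% and 14.7% of all genes. They summed to 588 FPKM in MEIS1-/- and 514 FPKM in wild type with none at 0. RGS5, a pericyte gene singled out after its values were seen, had 293.46 FPKM in MEIS1-/- and 202.25 FPKM in wild type, and without it the other 7 summed to 294 FPKM in MEIS1-/- and 312 FPKM in wild type. Of those 7, TAGLN, the 1 lower gene, held 223 FPKM in MEIS1-/- and 260 FPKM in wild type. CSPG4 and ACTA2 were the other higher genes, with ratios of 2.39 (1.78 to 3.31) and 1.95 (1.59 to 2.42), although their counts were not whole. PDGFRB, a receptor that marks pericytes, had a ratio of 0.90 (0.78 to 1.05).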

How the data were processed

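Each table holds 1 library. The authors deposited expected counts, which are estimates that can be fractional where a read matching several genes is divided, together with a transcript length and FPKM, which scales for length and depth, per the file headers. BWA, Bowtie, RSEM and build hg19 were named without versions, per the submitters' processing notes, and the series design text also named TopHat with Cufflinks. Which of these made the tables is not given in the sources used here, nor is strand. The kit was a TruSeq RNA kit with 2 µg of RNA, per the labels' protocols.

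Expected counts were rounded to whole numbers, and a gene absent from a table was taken as 0. Gene numbers were paired with symbols through RefSeq (GRCh38.p14) for 18413 of 18518 genes. Scaling used TMM effective library sizes (edgeR 4.0.16, R 4.3.3), with a quotient of 1.01 between the libraries. Folds and log2 ratios are MEIS1-/- over wild type with a pseudocount of 1, and their exact Clopper-Pearson 95% intervals (scipy 1.17.1) use the counts without it, given their sum. Each genotype had 1 library, so there is no model and no p-value. Genes with 10 counts in at least 1 library were measured, and a count of 0 allows up to 3. PCR copies are not separate molecules, so intervals and floor reflect counting error alone. The code was tested on simulated data. 

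The members, pathway genes, marker lists and motifs were chosen with earlier results of these data known. Named genes are all members, MEIS1, pathway genes past 2-fold, the gene of highest mean FPKM in each role group and, in each marker list, the 2 of largest absolute ratio, of which the text gives a part. Others, such as LFNG, RBPJ, PSEN2, NCSTN, SPEN, MFAP5, HEY1, HEY2, RFNG, MAML3, MIB2, FBXW7, RGS5 and PDGFRB, were named after their values were seen. The same holds for TAGLN, ACTA2, PAX3, EPHB4, NRP2 and NES. Some genes of the lists are not reported here. No genes of like pattern were sought, since 2 libraries give 1 ratio per gene.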

Additional observations from a re-analysis of the deposited data

How the results depend on the processing

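No paired analysis was possible because each genotype had 1 library, and for the same reason no library could be left out. Alternatives were library totals, DESeq2 1.42.0 size factors and upper-quartile factors for scaling, counts not rounded, pseudocounts of 0.5 and 5, FPKM with pseudocounts of 1 and 0.1, count minimums of 1 and 50, folds of 1.5 and 4, and 99% intervals. Of 80 alternative ratios of single members, 79 stayed within their counting interval. The exception was DLL3 from FPKM with a pseudocount of 1, at -1.92 in place of -3.47. NOTCH2, whose interval includes 1, changed sign with DESeq2 size factors, at 0.0086 in place of -0.0064, and the median of the members with it. MEIS1 stayed within its interval in 8 of 8. The median of the members was 0.15 with a minimum of 1 and 0.30 with a minimum of 50. With 99% intervals the 5 calls among members remained, and 8 pathway genes were higher and 5 lower in place of 12 and 7. MIB2 also lost its call with library totals and upper-quartile factors, and FBXW7 joined the higher genes with DESeq2 size factors. With a minimum of 50 counts, which leaves out DLL3, 1 member was lower by its interval in place of 2, 0 were lower by 2-fold in place of 1, and 2 pathway genes were higher and 0 lower by 2-fold in place of 4 and 2. At 4-fold, 0 members were higher in place of 1, and 2 pathway genes were higher and 1 lower. Adding NOTCH2NLA to NOTCH2 moved 3 receptor shares, given above, beyond their counting error. Depth limits NOTCH4, DLL1, DLL3, DLL4 and NRARP, whose intervals span at least a 3-fold range, with that of DLL3 wholly below 1.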

Other observations

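DLL3 is listed with 2 transcripts, and the deposited length, which is weighted over them, was 2052 bases in the MEIS1-/- library and 2156 bases in the wild-type library. With 3 counts in MEIS1-/- this says little about which transcript was present there. DLK1 and DNER, non-canonical ligands of other tissues, had 5 and 0 counts in MEIS1-/-, against 8 and 4 counts in wild type.

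The remaining marker lists differed in direction, and their counts stand beside 15.4% of all genes higher and 14.7% lower. Of 4 venous genes 1 was higher, NR2F2, with 34 counts in MEIS1-/- and 14 in wild type, and 1 was lower, APLNR, with 3859 counts in MEIS1-/- and 5460 in wild type. The venous list summed to 289.99 FPKM in MEIS1-/- and 377 FPKM in wild type. APLNR alone held 186 FPKM of this in MEIS1-/- and 268 FPKM in wild type, and EPHB4 and NRP2 had intervals that included 1. The blood list summed to 9.41 FPKM in MEIS1-/- and 4.80 FPKM in wild type, with 2 of 4 measured genes higher. The embryonic globin gene HBZ was at 0 in both. The endoderm list summed to 92.0 FPKM in MEIS1-/- and 129 FPKM in wild type, with 2 of 6 measured genes lower. These were CER1 and SOX17, and SOX17 is counted in the arterial list as well. Neural genes summed to 124 FPKM in MEIS1-/- and 140 FPKM in wild type, with 1 of 3 measured lower, OTX2, and SOX1, NEUROG2 and ELAVL3 at 0 in both. NES held 114 FPKM of this sum in MEIS1-/- and 119 FPKM in wild type, with an interval that included 1. PAX6 had 3 counts in MEIS1-/- and 10 in wild type, so it was measured only through the wild-type library, and its interval included 1.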
